A study of Rattus norvegicus with 4 samples.

Results

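The transcripts described here are those of fatty acid synthesis and desaturation in the soleus of the rat, a calf muscle of mostly slow fibres that works against gravity in standing. They were chosen by gene symbol, as every probe set of the array annotated to Scd, Fasn, Acaca, Acacb, Acly, Srebf1, Me1 or Thrsp. These were 16 of the 8740 probe sets that are not Affymetrix controls, and they covered 7 of the 8 genes. Thrsp had no probe set in the annotation used here. In 15 of the 16 the annotation gave 1 gene, and the remaining probe set was shared by Scd and other genes of the Scd family.

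RNA came from female rats in 2 groups, with 2 pools of soleus RNA per group and 1 array per pool. For 11 days, rats of the unloaded group could not bear weight on the hindlimbs during 10 h of the day, and rats of the control group stood and walked freely in their cages over the same time. Each pool held RNA of 4 to 5 rats, so errors and p-values describe the spread between pools, not between single animals. No strain, age or genotype was given in the labels. Of 10 genes listed as markers of slow skeletal muscle, 7 had a probe set, and all of these were tested. Their summed signal was 45393.8 and 51330.9 in the unloaded pools, against 49520.7 and 50188.8 in the control pools, so the groups overlapped.

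Fatty acids are built in the cytosol from acetyl-CoA, which ATP citrate lyase (Acly) releases from citrate. Acetyl-CoA carboxylases (Acaca and Acacb) turn it into malonyl-CoA, fatty acid synthase (Fasn) assembles the chain with NADPH that malic enzyme (Me1) helps to supply, and stearoyl-CoA desaturase (Scd) places the first double bond in the product. Srebf1 encodes the transcription factor SREBP-1, which insulin activates and which drives many of these genes, and Thrsp encodes a small lipogenic protein that thyroid hormone induces in liver and fat. In skeletal muscle, where little fat is made, malonyl-CoA is best known as the inhibitor of fatty acid entry into mitochondria.

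The start-site windows of Scd and Acly are shown because these were the genes with a tested probe set that lay higher in both unloaded pools than in both control pools. Each window runs from 250 bases before to 50 bases after the start annotated by RefSeq on the rat assembly GRCr8, and both lie on the minus strand, Scd at chr1:253231682-253231981 and Acly at chr10:85963582-85963881. Capitals mark matches, on either strand, to any of the motifs CCAAT (bound by NF-Y), CACGTG (an E-box), GGGCGG (a GC box), TCACNCCAC (a sterol response core) and TGACCT (found in sites of nuclear receptors).
Scd: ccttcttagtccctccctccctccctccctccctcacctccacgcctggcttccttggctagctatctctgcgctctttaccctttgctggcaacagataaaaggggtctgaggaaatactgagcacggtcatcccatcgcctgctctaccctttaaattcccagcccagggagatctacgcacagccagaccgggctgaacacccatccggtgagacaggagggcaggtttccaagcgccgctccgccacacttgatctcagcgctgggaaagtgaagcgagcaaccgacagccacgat
Acly: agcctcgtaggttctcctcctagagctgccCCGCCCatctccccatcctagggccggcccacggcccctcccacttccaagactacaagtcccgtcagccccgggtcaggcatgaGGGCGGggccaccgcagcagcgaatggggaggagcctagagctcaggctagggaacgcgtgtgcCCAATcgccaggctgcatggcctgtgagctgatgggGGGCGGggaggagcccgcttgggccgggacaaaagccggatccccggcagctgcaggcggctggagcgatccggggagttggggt
The Scd window held none of these motifs. The Acly window held 1 CCAAT, starting at base -71 from the start site, and 3 GGGCGG. The RefSeq table held 7 windows for 6 of the genes, with 2 for Srebf1. Of these 7 windows, 5 held CCAAT and 5 held GGGCGG, 1 (Acacb) held TGACCT, and 0 held CACGTG or TCACNCCAC. Among all 33469 windows of the table, CCAAT occurred in 37.5%, GGGCGG in 33.1%, TGACCT in 16.2%, CACGTG in 6.42% and TCACNCCAC in 1.12%.

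Signals were tested as log2(signal + 9), and fold changes below are unloaded minus control on that scale. The added 9 shrinks the change of transcripts with low signal. Of the 16 probe sets, 13 had a mean signal over the 4 arrays of at least 21.0 and were tested, and every gene except Thrsp kept at least 1. None of the 13 passed at an adjusted p under 0.05 in limma, with Benjamini-Hochberg adjustment over 5257 probe sets. Of all tested probe sets 5.25% passed, 2.59% higher and 2.66% lower. At an unadjusted p under 0.05 stood 4 of the 13 (30.8%), against 20.8% of all tested. Both unloaded pools lay above both control pools for 2 of the 13 (15.4%) and below them for 5 (38.5%), against 25.5% and 25.3% of all tested probe sets. Those 5 came from 3 genes, with Me1 giving 3 of them. The median log2 fold change was -0.12 over the 13 and 0.00 over all tested. The members thus stood close to the background of the array in size, with 92.3% of them within 0.5 log2 of no change, against 90.1% of all tested probe sets. With 2 arrays per group the 95% confidence intervals of the 13 differences reached from 0.23 to 0.94 log2 to either side, so small changes were not detectable.

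**Figure D1:**
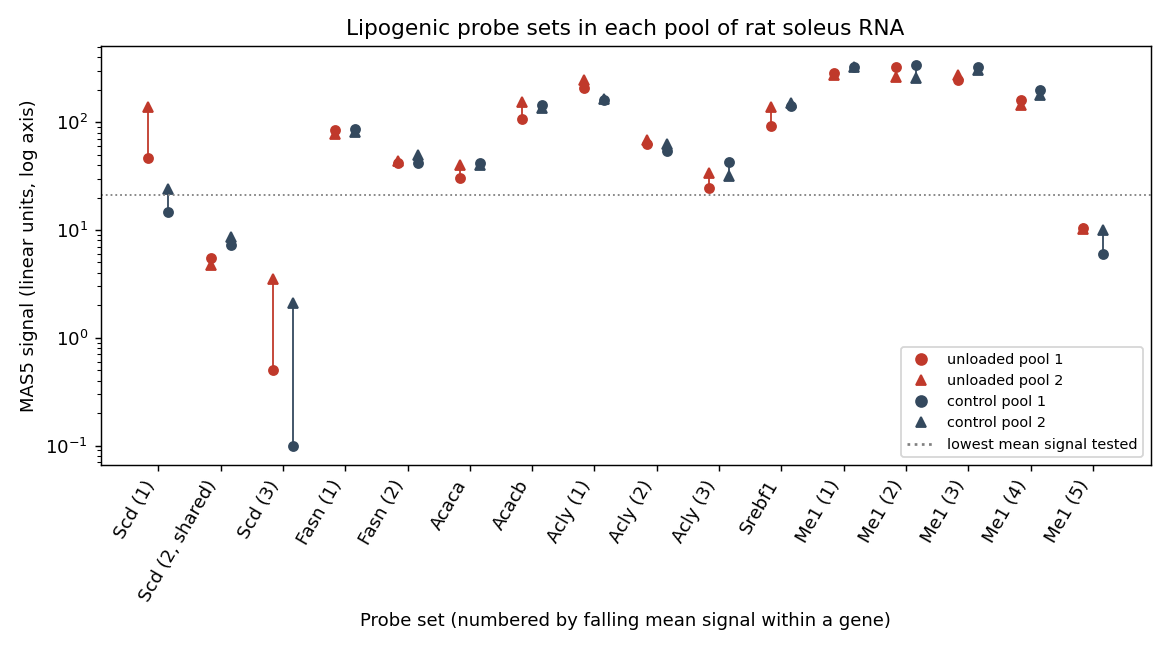
MAS5 signal (linear units on a log axis) of the 16 probe sets in each pool, with unloaded pools in red to the left of control pools in dark blue, circles for pool 1, triangles for pool 2 and a line joining the pools of a group. The dotted line at 21.0 is the lowest mean signal tested. The first Scd probe set lies between 46.7 and 137.4 in the unloaded pools, above both control pools, while in 6 of the 13 tested probe sets the groups overlap.

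Scd, the desaturase that makes oleate from stearate, had the largest difference of the 13. Its tested probe set (J02585_at) had signals of 46.7 and 137.4 in the unloaded pools, against 14.7 and 24.1 in the control pools. The groups did not overlap, and the lower unloaded pool was 1.94 times the higher control pool. The unloaded mean was 92.05 ± 64.1 and the control mean 19.4 ± 6.65 (SD, n = 2 pools each), a log2 fold change of 1.69 (SE 0.41, 95% interval 0.75 to 2.63). In limma it missed the threshold (adjusted p = 0.0561). The control mean of 19.4 lay under the limit of 21.0, so Scd was tested only because of its signal in the unloaded pools, and its place in the counts above and its interval carry that selection and the added 9.

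How far Scd stood above the controls depended on the unloaded pool. Pool 2 was 2.94 times pool 1 in signal, or 1.39 on the log2(signal + 9) scale, and only 10 of the 5257 tested probe sets had a wider gap between the unloaded pools. Between the control pools the gap was 0.48, and 394 probe sets had a wider one. Without unloaded pool 2 the log2 fold change was 0.99 (adjusted p = 0.196), and without unloaded pool 1 it was 2.39 (adjusted p = 0.0186). Over 11 alternatives the adjusted p ran from 0.0186 to 0.246, and 2 of them passed.

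The other probe sets of Scd gave no further measurement. A second one (rc_AI175764_s_at) had signals of 0.5 and 3.5 in the unloaded pools, against 0.1 and 2.1 in the control pools, close to 0 on every array. The probe set shared with Scd2, Scd3 and Scd4 (AF036761_g_at) had 5.5 and 4.7 in unloaded pools, against 7.2 and 8.7 in control pools. Both lay under the signal limit and were not tested, so the difference in Scd was seen on 1 probe set.

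The pools of a group also differed in other members. Pool 2 was above pool 1 for 9 of the 13 members (69.2%) in the unloaded group, against 51.6% of all tested probe sets. In the control group this held for 5 of the 13 (38.5%), against 48.8% of all. Acly and Me1 gave 7 of the 13 probe sets, and 3 of the 4 of Me1 and 1 of the 2 of Fasn had unloaded pool 2 the lower. Srebf1 and Acacb had the next widest gaps in the unloaded group after Scd, 0.54 and 0.50 log2, with 259 and 330 tested probe sets wider. Their gaps in the control group were 0.10 and -0.07. These orders of pools are a description and were not tested.

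**Figure D2:**
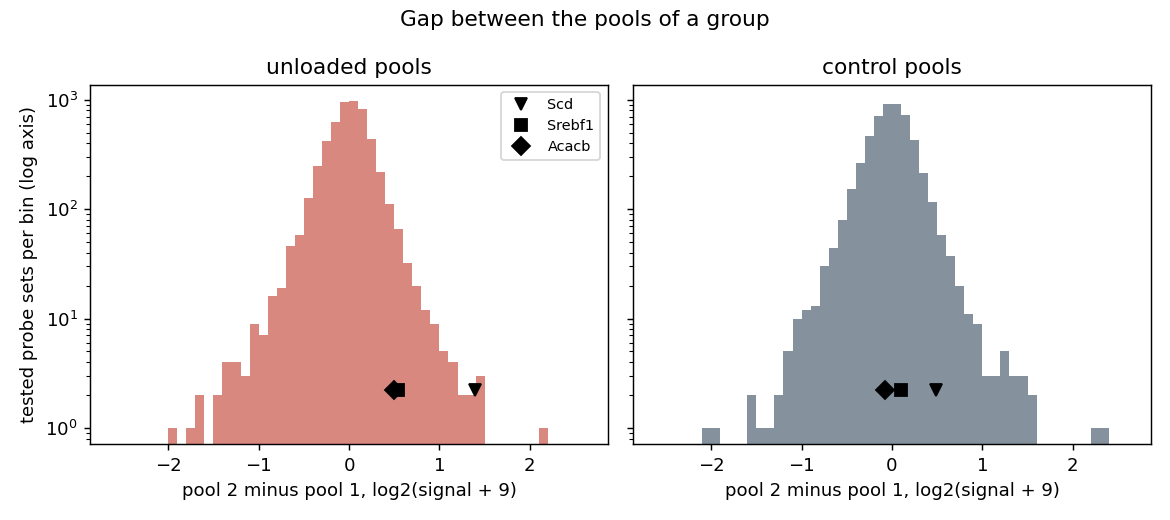
Gap between the 2 pools of a group (pool 2 minus pool 1, log2(signal + 9)) over the 5257 tested probe sets, with unloaded pools on the left and control pools on the right; bars count probe sets per bin on a log axis, and the height of the black symbols carries no value. Scd lies at 1.39 in the unloaded pools, out in the tail, and at 0.48 in the control pools.

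Srebf1, the gene of SREBP-1, lay lower in the unloaded muscle but did not pass. Its signal was 91.4 and 137.3 in the unloaded pools, against 141.1 and 152.1 in the control pools. The groups did not overlap, although unloaded pool 2 came close to the lower control pool. The means were 114 ± 32.5 and 147 ± 7.78 (SD, n = 2 each), a log2 fold change of -0.36 (SE 0.18, 95% interval -0.78 to 0.06, adjusted p = 0.310). Without unloaded pool 1 the value was -0.09, and without unloaded pool 2 it was -0.63. Srebf1 and Scd therefore differed from controls in opposite directions in these pools, and neither passed.

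Acly was read by 3 tested probe sets that did not go one way. The first (J05210_g_at) had 207.8 and 244.3 in the unloaded pools, against 161.1 and 163.9 in the control pools. These groups did not overlap, and the log2 fold change was 0.45 (SE 0.12, 95% interval 0.17 to 0.73, adjusted p = 0.0821), 1.37-fold higher. A second probe set designed from the same sequence entry (J05210_at) had 62.2 and 68.8 in unloaded pools, against 54.6 and 63.2 in control pools, with a log2 fold change of 0.14 (SE 0.15). The third (L27075_g_at) had 24.7 and 33.9 in unloaded pools, against 42.7 and 32.0 in control pools, and gave -0.28 (SE 0.21). In both of these the groups overlapped. With the probe sets averaged per gene, Acly gave 0.10 (SE 0.14, adjusted p = 0.757).

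Neither acetyl-CoA carboxylase passed the test. Acaca, the cytosolic form that feeds fatty acid synthesis, had 30.7 and 39.9 in the unloaded pools, against 42.1 and 40.2 in the control pools. Unloaded pool 2 stood just under control pool 2, and the log2 fold change was -0.19 (SE 0.18, adjusted p = 0.631). Acacb, the form at the mitochondrial surface whose malonyl-CoA restrains fatty acid import and which prevails in muscle, had 106.3 and 153.7 in the unloaded pools, against 143.3 and 135.8 in the control pools. Here the unloaded pools stood on either side of the control pools (log2 fold change -0.12, SE 0.17, 95% interval -0.52 to 0.28, adjusted p = 0.770).

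Fasn, which carries out all steps of chain assembly on 1 protein, overlapped between the groups on both of its probe sets. The first (X13527cds_s_at) had 85.4 and 78.3 in the unloaded pools, against 85.8 and 81.8 in the control pools, and the second (M76767_s_at) had 42.0 and 43.4 in the unloaded pools, against 41.9 and 50 in the control pools. The log2 fold changes were -0.03 (95% interval -0.34 to 0.28, adjusted p = 0.934) and -0.08 (95% interval -0.47 to 0.30, adjusted p = 0.835). Both intervals stayed within 0.5 log2 of no change on the scale used, where the added constant shrinks changes at low signal. With a smaller constant, the 10th percentile of signals, the second probe set gave -0.09 with a larger SE (0.19, against 0.17). A limit on the change in Fasn therefore depends on that constant and was not set.

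Me1, the cytosolic malic enzyme, had lower signals in the unloaded pools on most of its probe sets, without passing. Of its 4 tested probe sets, 3 had both unloaded pools below both control pools. One of them (rc_AI171506_at) had 287.1 and 274.2 in unloaded pools, against 324.6 and 323.4 in control pools. Another from the same sequence entry (rc_AI171506_g_at) had 248.4 and 275.7 in unloaded pools, against 328.8 and 308.1 in control pools. The last of the 3 (M26594_at) had 160.5 and 143.8 in unloaded pools, against 198.8 and 178.1 in control pools. Their log2 fold changes were -0.20, -0.27 and -0.29 (SE 0.10, 0.11 and 0.12), with adjusted p of 0.303, 0.207 and 0.231, so none passed. The other tested probe set (rc_AI008020_at) had 322.4 and 261.9 in unloaded pools, against 340.3 and 257.4 in control pools, and its groups overlapped (-0.03, SE 0.16). A further one (rc_AI171067_at) lay under the signal limit, at 10.4 and 10.2 in unloaded pools, against 6.0 and 10.0 in control pools. Averaged per gene over its tested probe sets, Me1 gave -0.20 (SE 0.11, 95% interval -0.44 to 0.04, adjusted p = 0.343).

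**Figure D3:**
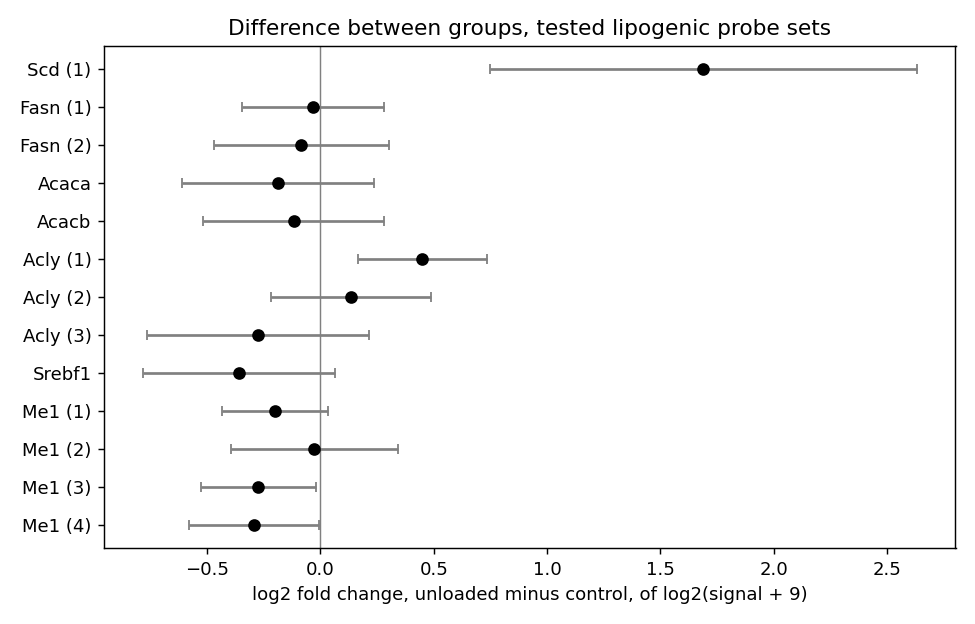
Log2 fold change (unloaded minus control, of log2(signal + 9)) of the 13 tested probe sets; points are estimates and bars 95% confidence intervals from limma. Scd stands at 1.69 with the widest interval, 0.75 to 2.63, and all others lie between -0.36 and 0.45.

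Of the tested members, a probe set of Me1 (rc_AI171506_at) had the highest log2 signal on average, and it was used to find genes of like pattern. The 5 genes with the smallest Euclidean distance to it over the 4 arrays, after centring each probe set on its mean, were Tle4, Ighvl1, Pex2, Slc25a26 and Abcc9, at distances of 0.02 to 0.04 log2. Tle4, for example, had 76.9 and 72.9 in unloaded pools, against 86.1 and 86.6 in control pools. With 4 arrays such closeness is only a description.

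Around these genes, 6 lists of pathway genes held 96 genes, of which 54 had a probe set with 1 symbol and 49 were tested, each read by its brightest probe set. Of the 49, 4 rose (8.16%, against 2.59% of all tested probe sets), 0 fell (against 2.66%) and 45 did not pass. Their median log2 fold change was 0.05, against 0.00 over all tested probe sets. The lists were written with earlier results of these data known. Each gene was also read by its brightest probe set, while the background holds every tested probe set. The shares are therefore a description, and the lists were not tested as sets.

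The 4 that rose act beside fatty acid synthesis, and none is an enzyme of chain building. Gpd1, which makes the glycerol phosphate backbone of glycerolipids, had 83.2 and 71.5 in unloaded pools, against 27.9 and 26.2 in control pools (log2 fold change 1.26, SE 0.16, adjusted p = 0.00534). Acsl6, which activates long-chain fatty acids to acyl-CoA, had 154.2 and 192.7 in unloaded pools, against 83.5 and 82.7 in control pools (0.98, SE 0.14, adjusted p = 0.00886). Prkab1, a regulatory subunit of the AMP-activated kinase that phosphorylates and inhibits the carboxylases, had 218.6 and 236.9 in unloaded pools, against 132.8 and 128.0 in control pools (0.76, SE 0.11, adjusted p = 0.00976). Cpt1a, the liver-type isoform of the mitochondrial import enzyme that malonyl-CoA inhibits, had 117.8 and 103.7 in unloaded pools, against 66.0 and 71.9 in control pools (0.62, SE 0.14, adjusted p = 0.0464). In each of the 4 the groups did not overlap. Cpt1b, the muscle isoform of the same enzyme, had 3110.4 and 3343.9 in unloaded pools, against 2861.4 and 2857.9 in control pools, and did not pass (0.17, SE 0.09, adjusted p = 0.299), nor did its other probe set (0.03, SE 0.08, adjusted p = 0.912). With 1 array left out, Cpt1a did not pass whichever it was (adjusted p = 0.132 to 0.279), nor did Prkab1 (0.0642 to 0.105). Acsl6 passed only without unloaded pool 1 (0.0372), and Gpd1 failed without unloaded pool 1 (0.0822) and without control pool 2 (0.0575). Cpt1a also did not pass with quantile normalization (0.0559), without a filter (0.116) or without a variance trend (0.0743), and Acsl6 did not pass without a filter (0.0504).

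The 4 came from different lists. In elongation and desaturation 1 of 11 tested genes rose and 10 did not pass, with a median of 0.19. In glycerolipid assembly 1 of 6 rose (median 0.12), among AMP-activated kinase genes 1 of 4 (median 0.02) and among malonyl-CoA genes 1 of 4 (median 0.05). None of 8 genes of citrate, acetyl-CoA and NADPH supply passed (median 0.04), and none of 16 lipogenic regulators (median 0.03).

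Several genes close to the pathway came near the threshold. Scd2, a second stearoyl-CoA desaturase, had 172.8 and 173.8 in unloaded pools, against 124.7 and 121.9 in control pools on its brightest probe set (0.46, SE 0.11, adjusted p = 0.0604). Its other 4 tested probe sets gave -0.38, -0.22, -0.19 and 0.10 and did not pass, so the probe sets of Scd2 disagreed in direction. Insig1, which holds SREBP precursors in the endoplasmic reticulum and is itself an SREBP target, had 78.1 and 108.2 in unloaded pools, against 155.0 and 146.0 in control pools (-0.66, SE 0.16, adjusted p = 0.0604). Its second probe set gave -0.41 (SE 0.13), and the mean of both passed in the fit over genes (-0.53, SE 0.13, adjusted p = 0.0456).

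Among the remaining named genes, Plin2, a lipid droplet coat protein, gave 0.46 (SE 0.12, adjusted p = 0.0780) and citrate synthase Cs gave 0.41 (SE 0.11, adjusted p = 0.0714). The fatty acid oxidation factor Ppara gave -0.51 (SE 0.19, adjusted p = 0.176), the acyl-CoA thioesterase Acot7 -0.33 (SE 0.13), the catalytic kinase subunit Prkaa1 -0.36 (SE 0.18) and the cytosolic aconitase Aco1 0.23 (SE 0.10). None of these passed.

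**Figure D4:**
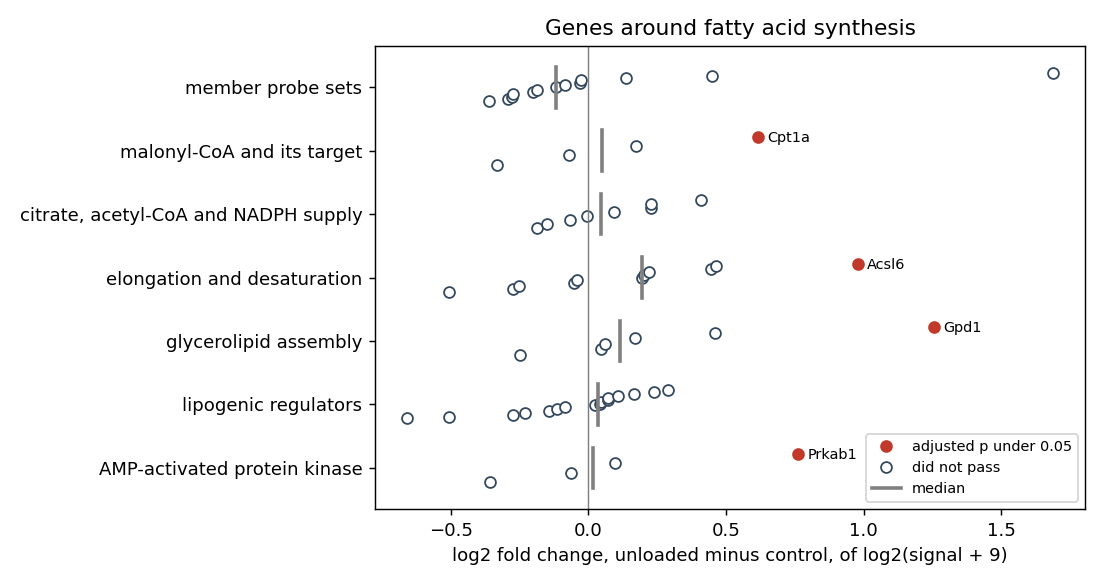
Log2 fold changes (unloaded minus control, of log2(signal + 9)) of the 13 member probe sets and of the tested genes of the 6 pathway lists, 1 point per probe set or gene, with filled red points at an adjusted p under 0.05 and grey bars at medians. Cpt1a, Acsl6, Gpd1 and Prkab1 are the 4 that passed.

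Lipogenic transcripts are abundant in fat and in the myelinating cells of nerve, either of which a whole muscle can hold, and in pooled tissue fewer cells of a type and less RNA per cell cannot be told apart. Of 13 adipocyte markers, 9 had a probe set with 1 symbol, and their summed signal was 2054.3 and 2401.5 in unloaded pools, against 2135.7 and 2350.3 in control pools. The groups overlapped, and pool 2 was the higher in both. The largest signals in this sum were those of Lep and Lipe. Lep had 745.9 and 914.9 in unloaded pools, against 865.6 and 992.1 in control pools. Its other tested probe set had 24.9 and 32.9, against 43.2 and 28.1. Lipe had 515.9 and 620.9 in unloaded pools, against 493.2 and 510.4 in control pools. Whether fat content bears on the Scd values was not tested. None of the 7 tested passed. Pck1 (8 and 18.5 in unloaded pools, against 2.8 and 8.3 in control pools) and Plin1 lay under the signal limit and were not tested. Lipe and Pparg also stand in the pathway lists, and Adipoq had no probe set in the annotation used here. Plin1, the droplet coat protein of fat cells, had 5.8 and 12.9 in unloaded pools, against 19.5 and 19.3 in control pools, under the signal limit. Cfd, the fat cell protease adipsin, had 109.0 and 105.9 in unloaded pools, against 135.3 and 209.0 in control pools (-0.61, SE 0.19, adjusted p = 0.125). Fabp4, the fat cell fatty acid binding protein, which endothelium also makes, had 393.1 and 441.0 in unloaded pools, against 317.8 and 351.0 in control pools (0.31, SE 0.11, adjusted p = 0.167).

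Of 8 Schwann cell markers 6 had a probe set, with a sum of 748.1 and 808.0 in unloaded pools, against 800.0 and 863.2 in control pools, and the groups overlapped. The sums of 3 blood markers were 5199.3 and 5107.1 in unloaded pools, against 4326.1 and 4567.0 in control pools, and those of 4 endothelial markers were 315.7 and 342.6 in unloaded pools, against 369.8 and 371.5 in control pools. Neither of these pairs of groups overlapped, none of the markers passed, and their part in the members' values was not tested. Most of the blood sum was Hbb, with 4896.6 and 4837.7 in unloaded pools, against 4067.3 and 4365.2 in control pools. Of the 3 blood markers 2 lay above in both unloaded pools. Of the 4 endothelial markers only 1 (Flt1) lay below in both, and the groups overlapped in the others. Leukocyte sums (4 genes) were 474.1 and 381.2 in unloaded pools, against 285.2 and 472.1 in control pools. Liver sums (4 genes) were 115.2 and 145.6 in unloaded pools, against 126.4 and 121.4 in control pools.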

How the data were processed

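Total RNA of soleus pools was read on Affymetrix arrays, 1 per pool. The authors deposited intensity values per probe set on a linear scale, made with MAS5 per the submitters' processing notes; no version or setting is stated in the labels. The trimmed mean without 2% at each end was 150.2 or 150.3 on every array. The number of arrays limits the precision.

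Of 8799 probe sets, 59 Affymetrix controls were left out, and 7006 had 1 symbol, 308 several and 1426 none in the platform annotation, updated by gene ID to RefSeq on GRCr8. The offset of 9 is the 25th percentile of all signals and the limit of 21.0 the 40th percentile of mean signals. The comparison used limma 3.58.1 under R 4.3.3 (lmFit, eBayes with a mean-variance trend, 2 residual and 5.80 prior degrees of freedom). The same step was run on simulated data with independent errors and no mean-variance trend. That run does not show how the test performs on these pools. Intervals are limma's, without adjustment. Figures were drawn with matplotlib 3.10.9.

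All member probe sets are named whatever their values, and of each pathway list the genes that passed and the 2 with the smallest p. Cpt1b, Acsl1 and Cyb5a are named in addition. The members and lists were chosen with earlier results of these data known. Alternatives covered normalization, offset, filter, variance trend, a pool-number block, each array left out, the threshold and genes in place of probe sets.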

Additional observations from a re-analysis of the deposited data

How the results depend on the processing

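Over all tested probe sets 136 were higher and 140 lower; with no limit on dim probe sets they numbered 42 and 48, with no variance trend 52 and 61, at an adjusted p under 0.1 226 and 232, and with 1 array left out 22 to 43 and 38 to 55. With the pool number as a block they were 78 and 87, and the deviations of equally numbered pools correlated at -0.044 over the probe sets. The labels give only a pool number, and whether equally numbered pools were handled together was not tested. Of the members 0 passed in either direction; 1 was higher with the filter at the 60th percentile (Acly, adjusted p = 0.0479; Scd was not tested there), 1 with the block (Scd, 0.0335), 1 in the fit over genes (Scd, 0.0398), 2 at an adjusted p under 0.1 and 0 to 1 with 1 array left out, and none was lower in any of these. For Scd the fit over genes rested on the same 1 tested probe set, with the same log2 fold change of 1.69. Its adjustment ran over 3152 genes, so it is no separate measurement. Of the pathway genes 4 rose, against 3 with quantile normalization, with no variance trend and with the block (where Cpt1a gave 0.0922). Without a filter 2 rose, and fewer than 4 did with 1 array left out. With the filter at the 60th percentile 7 rose and 1 was lower, but Gpd1 lay under that limit and was not among the 7. In the fit over genes 4 rose and 1 was lower. The sign of values near 0 turned with 1 array left out: Acacb ran from -0.37 to 0.13, an Me1 probe set from -0.22 to 0.17 (0.12 without unloaded pool 2), and the Fasn probe sets from -0.088 to 0.025 and from -0.19 to 0.022. The leukocyte sum, unloaded over control, was 1.13 and ran from 0.906 to 1.499. With 1 array left out, the lone pool of its group is assumed to vary like the other group. The cause of these shifts was not tested. The control mean of Scd, 19.4, lay under the limit of 21.0.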
